A study of Mus musculus with 58 samples.

Results

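The genes described here were the chromatin remodelling families Chd, Arid and Smarc with 6 singly named genes, Adnp, Pogz, Zmynd8, Rai1, Ino80 and Bptf. They were chosen by mouse symbol and by a mean normalised count of at least 10 over all libraries. Symbols of 37 genes matched and all 37 passed that mean. The lowest mean was 190 (Arid3b), so none lay near the limit. The set held 9 Chd, 9 Arid and 13 Smarc genes and the 6 singly named genes, of 18088 genes in the table and 16669 genes tested. RNA had been sequenced in bulk from the prefrontal cortex of 58 C57BL/6J mice at postnatal day 25. The mice were labelled heterozygous (HT) or wild-type (WT) for Kmt5b, which encodes a histone H4 lysine methyltransferase. They had received vehicle, the serotonin reuptake inhibitor fluoxetine or the mood stabiliser lithium in the milk of the dam for 3 weeks, between days 3 and 24. Each genotype and treatment had 5 females and 5 males, except WT lithium with 4 of each sex. The HT allele, the drug doses and the litters were not stated in the labels, and pups fed by the same dam share a treatment. The p-values therefore measure the spread between mice without regard to litter.

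Chromatin remodellers are protein complexes built around an ATPase of the Snf2 type, which uses ATP to slide, eject or exchange nucleosomes and so sets how open DNA is to transcription factors. The SWI/SNF (BAF) complexes combine a Smarca ATPase with Smarcb, Smarcc, Smarcd and Smarce subunits and a DNA-binding Arid subunit, the Chd ATPases read histone tails through paired chromodomains, and the ISWI and INO80 ATPases space nucleosomes or exchange histone variants. In the developing brain, subunits of BAF are exchanged as progenitors become neurons, and mutations in human CHD8, CHD2, ARID1B, ADNP, POGZ, SMARCA2 and RAI1 cause neurodevelopmental disorders.

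Recovered reads per library lay between 23.5 and 38.6 M with a median of 27.6 M. The normalised count of Kmt5b itself averaged 1734 ± 98.3 (SD, n = 30) over the HT mice and 1654 ± 137 (SD, n = 28) over the WT mice. Its RNA was thus not lower in the libraries labelled HT, and every genotype below is that of the label. Markers of excitatory cortical neurons (Slc17a7, Neurod6, Tbr1 and Emx1) summed to between 37875 and 63486 normalised counts, so RNA of such neurons was present in every library. These markers cannot tell the prefrontal region from other cortex. Markers of the olfactory bulb (Cdhr1, Doc2g, Eomes and Tbx21) summed to between 95.8 and 10513, and none of the 4 was at 0 in any library. Markers of the striatum (Drd1, Drd2, Ppp1r1b, Rgs9, Adora2a and Penk) summed to 8278 in HT fluoxetine female 2, which stood apart from the 3049 to 5001 of the other 9 libraries of that group and the 3731 to 4459 of HT vehicle. Without that library 5 members still passed under fluoxetine in HT, and they were the same 5 genes (Arid5a, Chd4, Rai1, Arid3b and Smarca4). WT vehicle female 5 also stood apart, with a striatum sum of 5609 against 3111 to 4109 in the other libraries of WT vehicle. Without it the call of Zmynd8, the only member passing under lithium in WT, was lost. Every member call under fluoxetine in WT held without it. In bulk tissue, fewer cells of a type and less RNA per cell cannot be told apart.

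The promoter windows of Arid5a and Rai1 are shown because Arid5a fell under fluoxetine in both genotypes and Rai1 fell under fluoxetine in HT. Each window runs from 250 bases before to 50 bases after the start given by RefSeq (GRCm38.p6), 5′ to 3′ on the strand of the gene. Capitals mark GC boxes (GGGCGG, or CCGCCC on the other strand) and CCAAT boxes (CCAAT, or ATTGG on the other strand). The Arid5a window lies at chr1:36307483-36307782 (+) and the Rai1 window at chr11:60104763-60105062 (+).
Arid5a: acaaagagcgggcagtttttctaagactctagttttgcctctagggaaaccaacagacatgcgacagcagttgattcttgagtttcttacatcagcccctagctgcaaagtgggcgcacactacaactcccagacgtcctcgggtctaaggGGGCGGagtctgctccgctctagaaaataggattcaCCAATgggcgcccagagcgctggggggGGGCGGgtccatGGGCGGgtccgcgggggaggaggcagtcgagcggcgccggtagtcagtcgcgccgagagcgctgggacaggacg
Rai1: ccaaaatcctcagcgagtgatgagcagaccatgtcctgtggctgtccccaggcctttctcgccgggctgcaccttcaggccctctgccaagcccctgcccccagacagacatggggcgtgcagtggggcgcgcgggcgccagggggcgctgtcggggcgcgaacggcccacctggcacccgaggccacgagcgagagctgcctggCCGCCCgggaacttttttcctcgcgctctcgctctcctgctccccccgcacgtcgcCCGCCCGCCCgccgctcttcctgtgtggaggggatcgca
The Arid5a window held 3 GC boxes and 1 CCAAT box. The Rai1 window held 3 GC boxes and 0 CCAAT boxes. RefSeq windows were found for 29 of the 37 genes, as 39 windows. A GC box was present in 71.8% of these windows against 35.7% of 32851 windows of the same length, and a CCAAT box in 33.3% against 37.4%. The full cyclic AMP response element, TGACGTCA on both strands, was in 0 of 39 windows and in 1.79% of all windows. The letters TGACG, on either strand and also part of the full element, were in 38.5% against 20.8%. The AP-1 letters TGANTCA were in 5.13% against 7.81%, and the E-box CACGTG in 2.56% against 7.15%. Such matches describe letters in these windows only.

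Levels differed far more between genes than between mice. Normalised counts were divided by the exon length of each gene in kilobases so that genes could be set side by side, and values are given as mean ± SD over 58 libraries. Exon length was the union of all annotated exons of a gene, which can exceed the length of the transcripts expressed. The order of levels per kilobase therefore depends partly on the annotation. The median of the 37 genes was 193 per kilobase against 115 for all genes tested, and 28 of 37 lay above that median. The coefficient of variation over libraries had a median of 8.23% against 11.05% for all genes tested, and 30 of 37 lay below that median. It ran from 4.15% for Smarcd1 to 20.4% for Chd7. In the order of levels, 23 of 36 neighbouring pairs lay within 1 SD of each other, so only wide steps in the order are meaningful.

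Chd3, an ATPase of the deacetylase-containing NuRD complex, was the highest of the set at 2807 ± 220.3 per kilobase. Its NuRD relatives Chd5, which is enriched in neurons, and Chd4 reached 1045 ± 99.998 and 652 ± 46.3. The subfamily I enzymes Chd2 (127 ± 13.8) and Chd1 (84.9 ± 6.52), which space nucleosomes in transcribed genes, were much lower. Of subfamily III, Chd8 had 177 ± 11.9, Chd9 165 ± 13.0, Chd6 132 ± 11.9 and Chd7 32.4 ± 6.59 per kilobase. Chd7, the gene of CHARGE syndrome, was the most variable of all.

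Among the SWI/SNF ATPases, Smarca4 (BRG1) lay at 705 ± 44.9 and Smarca2 (BRM), its alternative, at 510 ± 50.5 per kilobase. The core subunits Smarcc2 (1372 ± 94.4) and Smarcd1 (1282 ± 53.2) came next after Chd3. The alternative subunits of the same positions were lower, with Smarcd3 at 311 ± 25.6, Smarcc1 at 275 ± 19.1 and Smarcd2 at 106 ± 10.1. Smarce1 lay at 246 ± 16.1 and Smarcb1, a core subunit of canonical BAF and PBAF, at 184 ± 11.1. The Arid subunits of SWI/SNF were ordered Arid1a (332 ± 28.8), Arid1b (191 ± 14.3) and Arid2 (140 ± 13.1), the last belonging to the PBAF form.

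The ISWI ATPases Smarca5 (SNF2H) and Smarca1 (SNF2L) lay at 259 ± 18.8 and 204 ± 15.1 per kilobase, and Bptf, the large subunit of the ISWI complex NURF, at 217 ± 24.7. Ino80 (134 ± 8.37), the fork-repair helicase Smarcal1 (193 ± 11.6) and Smarcad1 (68.1 ± 6.12) make up the other Snf2-type members. Of the Arid proteins outside SWI/SNF, the SIN3-associated Arid4a and Arid4b lay at 233 ± 19.7 and 97.9 ± 7.92, and Arid5b at 91.0 ± 11.9. Arid3a (35.6 ± 3.77), Arid3b (23.8 ± 3.83) and Arid5a (21.5 ± 3.16) were at the bottom of the order with Chd7. The reader proteins lay higher, with Zmynd8 at 395 ± 45.4, Adnp at 334 ± 53.9, Rai1 at 223 ± 23.5 and Pogz at 184 ± 11.3.

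**Figure D1:**
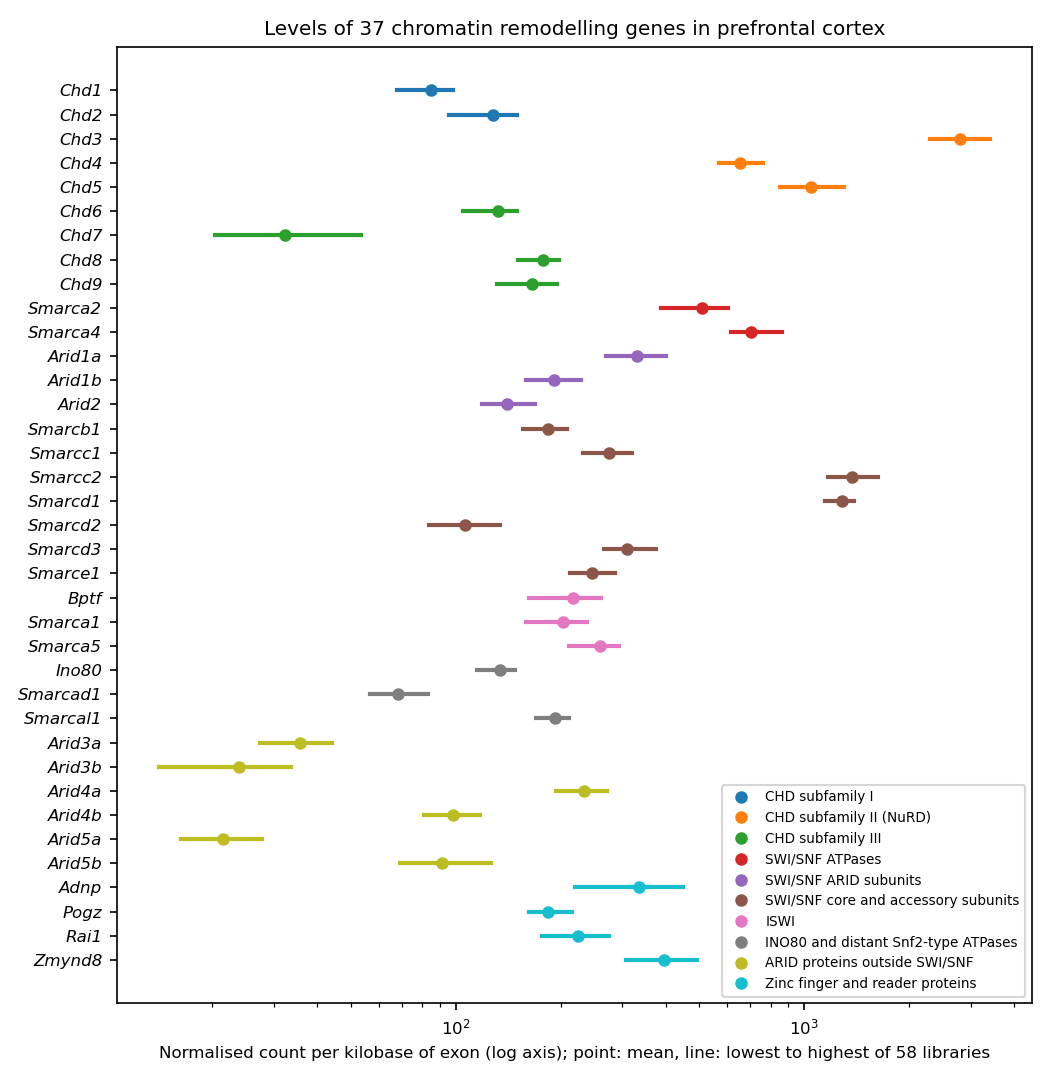
Mean level of each of the 37 genes (point) and the range over 58 libraries (line) as normalised count per kilobase of exon on a log axis, coloured by role. Exon length is the union of all annotated exons, so the order depends partly on the annotation. Chd3 is highest at 2807 and Arid5a lowest at 21.5, and the range of each gene over mice is narrow beside the spread between genes.

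Drug treatment moved few of these genes, and by small amounts. Differences are given on the log2 scale of normalised count + 1 with the standard error (SE), tested with limma over all 58 libraries, and a gene passed at a Benjamini-Hochberg adjusted p under 0.05 over all 16669 genes. Fluoxetine against vehicle in WT passed for 4 of 37 genes, where 7.39% of all genes tested passed, with 3 higher (background 3.98%) and 1 lower (3.41%). The same comparison in HT passed for 5 of 37, where 12.8% of all genes passed, with 0 higher (6.84%) and 5 lower (5.96%). Lithium against vehicle in WT passed for 1 of 37, where 3.34% of all genes passed, with 1 higher (1.95%) and 0 lower (1.39%). In HT it passed for 6 of 37, where 14.1% of all genes passed, with 3 higher (7.46%) and 3 lower (6.61%). Lithium against fluoxetine in WT passed for 1 of 37, where 4.21% of all genes passed, with 1 higher (2.55%) and 0 lower (1.66%). In HT it passed for 4 of 37, where 6.79% of all genes passed, with 4 higher under lithium (3.52%) and 0 lower (3.27%). Counted in either direction, the members' shares were of the order of the background. The rises under fluoxetine in WT, the falls under fluoxetine in HT and the higher values under lithium than fluoxetine in HT were above the background of their direction by share, and that excess was not tested, so what follows describes single genes. The comparisons of both drugs within a genotype share their vehicle libraries, and the comparison between drugs shares libraries with both.

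The median difference over the 37 genes was 0.04 under fluoxetine in WT and -0.06 under fluoxetine in HT, beside medians of all genes of 0.00 in both. With 24 of 37 genes above 0 in WT and 27 of 37 below 0 in HT, the signs leaned in opposite directions; no test was made of that. The median was 0.01 under lithium in WT and 0.02 under lithium in HT. These small medians turned negative under some other settings: with a covariate for the exon length slope of each library, described below, the median was -0.04 under fluoxetine in WT, -0.04 under lithium in WT and -0.07 under lithium in HT. With a covariate for olfactory bulb level it was -0.02 under lithium in WT, and with edgeR or DESeq2 on recovered reads of 54 libraries -0.01 under lithium in HT. No direction is therefore given to the families as a whole in these 3 comparisons. The median in HT under fluoxetine stayed between -0.05 and -0.07 in every setting run.

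**Figure D2:**
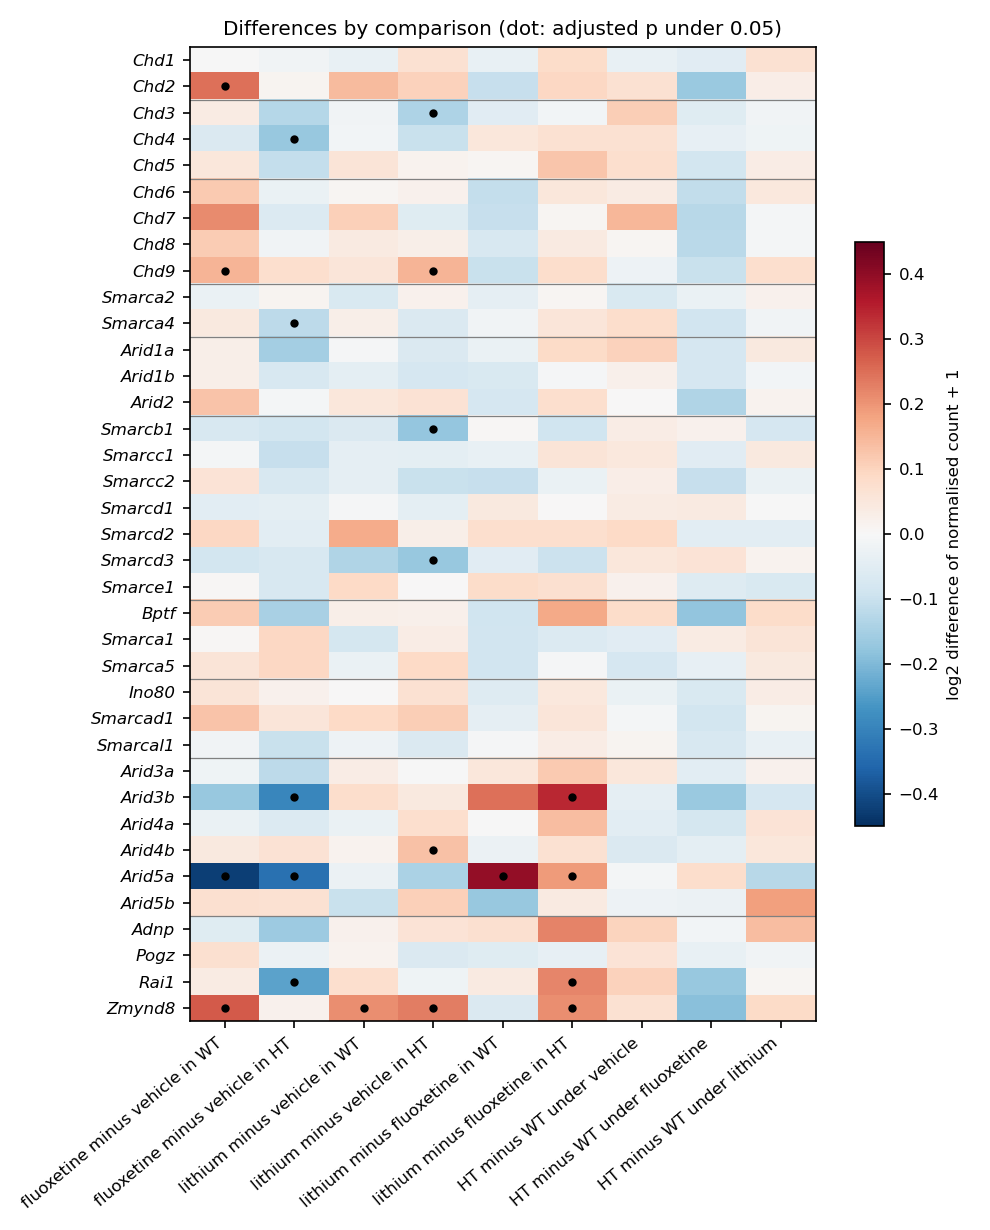
Log2 difference of each of the 37 genes (rows, grouped by role) in 9 comparisons (columns), red for higher and blue for lower in the first-named group, with a dot where the adjusted p was under 0.05. Dots are few, Arid5a and Zmynd8 have the most, and there are none in the 3 columns that compare HT with WT.

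Arid5a, which encodes an Arid protein known for binding and stabilising inflammatory mRNAs, fell under fluoxetine in both genotypes and had the largest fall of the set under that drug. Its gene (ENSMUSG00000037447) lies at chr1:36307733-36324029 on the + strand, in GRCm38 as all gene positions here. In WT its normalised count ran from 261.3 to 342.0 with a median of 300.9 under vehicle (n = 10), and from 203.4 to 238.7 with a median of 226.0 under fluoxetine (n = 10). All 10 WT fluoxetine libraries lay below all 10 WT vehicle libraries. In HT it ran from 253.4 to 345.9 (median 295.2) under vehicle and from 212.8 to 270.8 (median 228.6) under fluoxetine, and 7 of 10 fluoxetine libraries lay below every vehicle library. The difference was -0.42 (SE 0.0598, fold 0.745, adjusted p = 5.35e-06) in WT and -0.34 (SE 0.0598, fold 0.792, adjusted p = 0.000256) in HT. Both calls held without any single library and under every other setting.

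Arid5a did not pass under lithium against vehicle in either genotype. In WT lithium libraries it ran from 261.0 to 349.0 with a median of 283.8 (n = 8), and in HT lithium libraries from 220.7 to 326.1 with a median of 265.4 (n = 10). The lithium differences from vehicle were -0.03 in WT (adjusted p = 0.882) and -0.14 in HT (95% confidence interval -0.26 to -0.02, adjusted p = 0.0941). Against fluoxetine, all 8 WT lithium libraries lay above all 10 WT fluoxetine libraries, and the difference was 0.40 (SE 0.0635, adjusted p = 7.25e-05). In HT it was 0.19 (SE 0.0598, adjusted p = 0.0386), a call that did not pass in 11 of 20 fits without 1 library (adjusted p 0.0514 to 0.0941). Those libraries were HT fluoxetine female 1, 2 and 3 and male 1, 2 and 5, and HT lithium female 2, 3 and 5 and male 2 and 5. The call was also lost with the replicate block and in the compared groups alone, 2 of 12 other settings (adjusted p up to 0.0814).

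Arid3b, a DNA-binding relative of the B-cell factor Arid3a, fell under fluoxetine in HT. The gene (ENSMUSG00000004661) lies at chr9:57790353-57836793 (-). Its normalised count ran from 154.4 to 267.7 (median 196.7) under HT vehicle, from 111.7 to 211.0 (median 162.2) under HT fluoxetine and from 157.3 to 222.3 (median 205.7) under HT lithium. Fluoxetine libraries lay below the vehicle median in 9 of 10 cases, with overlapping ranges. The difference from vehicle was -0.29 (SE 0.0932, adjusted p = 0.0303), and lithium exceeded fluoxetine by 0.34 (SE 0.0932, adjusted p = 0.0174). The first call was lost without any 1 of HT fluoxetine female 1, male 2 or male 5, or HT vehicle female 3, female 5 or male 1 (adjusted p 0.0547 to 0.0805), and in 3 of 12 other settings (adjusted p up to 0.0939). The second was lost without HT fluoxetine female 1 (adjusted p = 0.0515). In WT, where the range was 132.7 to 231.1 under vehicle and 148.5 to 214.7 under fluoxetine, the difference was -0.17 and did not pass (adjusted p = 0.257).

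Arid4b, a subunit of the SIN3 deacetylase complex (ENSMUSG00000039219, chr13:14063232-14199603, +), rose under lithium in HT by 0.13 (SE 0.047, adjusted p = 0.048). It ran from 1479.5 to 1711.8 (median 1543.1) under vehicle and from 1543.7 to 1883.1 (median 1723.8) under lithium, and all 10 lithium libraries lay above the vehicle median. The call was lost in 7 of 12 other settings (adjusted p up to 0.397) and in 13 of 20 fits without 1 library (adjusted p 0.057 to 0.111), namely HT lithium female 2, 3, 4 and 5 and male 1, 4 and 5, and HT vehicle female 1, 2 and 3 and male 1, 4 and 5. Ggps1, whose gene overlaps Arid4b on the opposite strand, also rose there, by 0.17 (adjusted p = 0.00631), and whether the authors counted reads by strand was not given in the sources used here. In WT, Arid4b did not pass under lithium, and 4 of 8 lithium libraries lay above the vehicle median. The other Arid proteins outside SWI/SNF, Arid3a, Arid4a and Arid5b, passed in no comparison.

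Zmynd8, a reader of acetylated and methylated histone tails (ENSMUSG00000039671, chr2:165784152-165899016, -), was the member that was higher in the most drug comparisons. Under vehicle its normalised count ran from 3573 to 4487 (median 3772) in WT and from 3631 to 5154 (median 4065) in HT. Under fluoxetine it ran from 4080 to 5439 (median 4709) in WT and from 3390 to 4595 (median 4292) in HT. Under lithium it ran from 4010 to 5174 (median 4339) in WT and from 4419 to 5280 (median 4762) in HT. The fluoxetine and vehicle ranges overlapped in both genotypes. In WT, 8 of 10 fluoxetine libraries lay above every vehicle library. In HT, 0 of 10 did and 7 of 10 lay above the vehicle median. The highest HT vehicle value, 5154, came from female 3, and the other libraries of that group lay between 3631 and 4245.

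The differences of Zmynd8 from vehicle were 0.28 (SE 0.0555, fold 1.21, adjusted p = 0.00108) under fluoxetine in WT, 0.21 (SE 0.0589, adjusted p = 0.0328) under lithium in WT and 0.23 (SE 0.0555, adjusted p = 0.00413) under lithium in HT. Fluoxetine in HT gave 0.02 (adjusted p = 0.86), and there lithium exceeded fluoxetine by 0.21 (SE 0.0555, adjusted p = 0.0133). The call under lithium in WT was lost in 9 of 18 fits without 1 library (adjusted p 0.0536 to 0.0858), namely WT lithium female 4 and male 2, 3 and 4, and WT vehicle female 1, 4 and 5 and male 4 and 5. That under lithium in HT was lost with both the exon length slope and the olfactory bulb level as covariates (adjusted p = 0.0925).

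Rai1, a nucleosome-binding regulator whose loss in humans causes Smith-Magenis syndrome, fell under fluoxetine in HT. The gene (ENSMUSG00000062115) lies at chr11:60105013-60199197 (+), and its promoter is printed above. Its normalised count ran from 1840 to 2643 (median 2276) under HT vehicle, from 1693 to 2238 (median 1891) under HT fluoxetine and from 2050 to 2558 (median 2192) under HT lithium. Every HT fluoxetine library lay below the HT vehicle median. The difference was -0.24 (SE 0.0572, fold 0.847, adjusted p = 0.00468), and lithium exceeded fluoxetine by 0.22 (SE 0.0572, adjusted p = 0.0115). Both held without any single library and in every other setting. In WT, Rai1 ran from 1802 to 2370 under vehicle and from 1909 to 2386 under fluoxetine, a difference of 0.04 (adjusted p = 0.73). Srebf1, which overlaps Rai1 on the opposite strand, had -0.12 under fluoxetine in HT and did not pass (adjusted p = 0.238).

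Adnp, a zinc finger protein that works with Chd4 and heterochromatin protein, had wide ranges and passed nowhere. Its medians were 1683, 1679 and 1834 in WT vehicle, fluoxetine and lithium libraries and 1893, 1696 and 1944 in the corresponding HT libraries, within an overall range of 1174 to 2402. Its largest difference was 0.22 for lithium against fluoxetine in HT (adjusted p = 0.154), and reads of Adnp may be shared with the predicted gene Gm20716, which overlaps it on the same strand. Pogz, a zinc finger protein that binds heterochromatin protein, had medians of 1649, 1734 and 1686 in WT and 1735, 1645 and 1664 in HT for the same order of treatments. Its difference of largest size was 0.07, under fluoxetine in WT (adjusted p = 0.283).

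**Figure D3:**
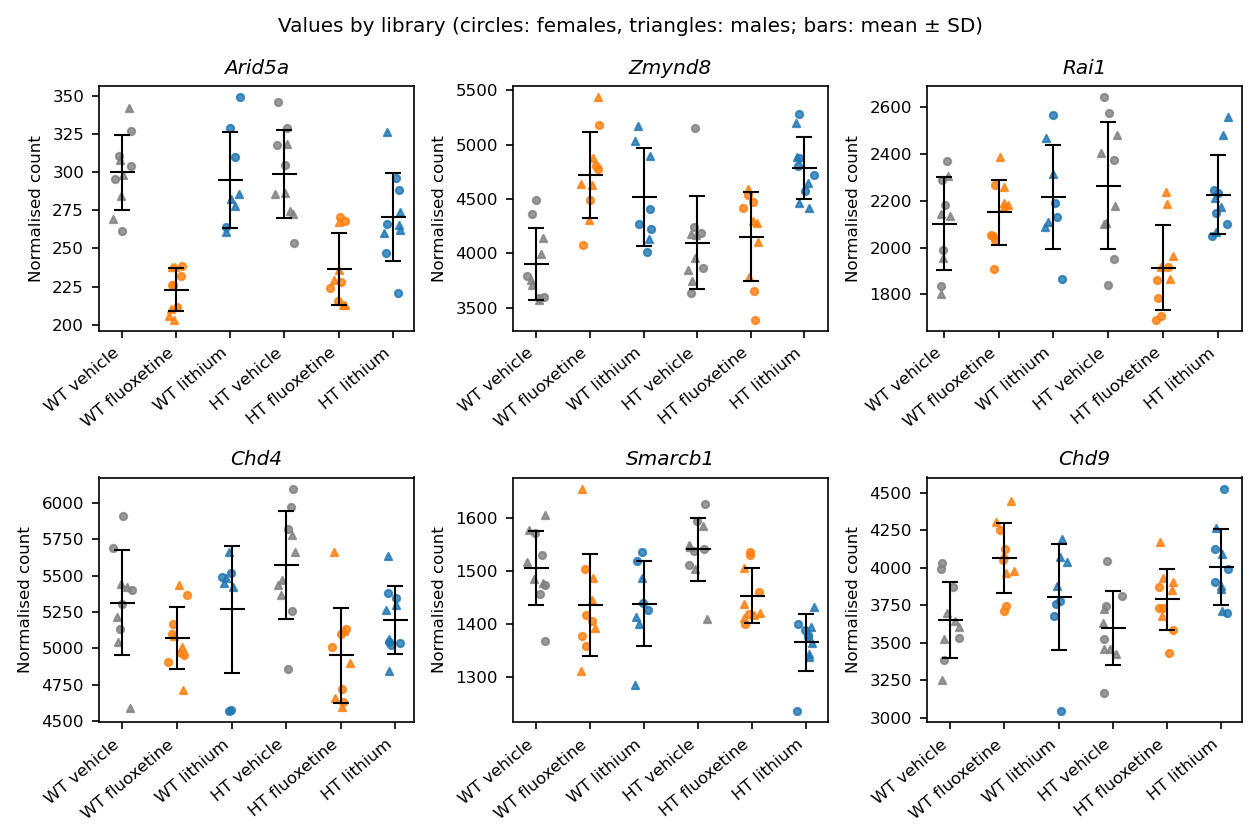
Normalised count in every library of Arid5a, Zmynd8, Rai1, Chd4, Smarcb1 and Chd9 by genotype and treatment, with circles for females, triangles for males and bars for mean ± SD. The WT fluoxetine libraries of Arid5a (203.4 to 238.7) lie wholly below the WT vehicle libraries (261.3 to 342.0), while the ranges overlap in the other drug comparisons against vehicle shown.

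Of the subfamily I and III Chd enzymes, Chd2 (ENSMUSG00000078671, chr7:73426638-73541830, -) and Chd9 (ENSMUSG00000056608, chr8:90828352-91054516, +) rose under fluoxetine in WT. Chd2 ran from 1432 to 1994 (median 1672) under WT vehicle and from 1786 to 2101 (median 2025) under WT fluoxetine, and 6 of 10 fluoxetine libraries lay above every vehicle library. The difference was 0.25 (SE 0.0615, adjusted p = 0.00945). In HT, where Chd2 ran from 1496 to 2002 under vehicle and from 1370 to 2136 under fluoxetine, it was 0.01 (adjusted p = 0.926). Lithium gave 0.14 in WT (adjusted p = 0.256) and 0.10 in HT (adjusted p = 0.254), neither passing.

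Chd9, the longest gene of the set by total annotated exon length, ran from 3254 to 4032 (median 3625) under WT vehicle and from 3710 to 4447 (median 4065) under WT fluoxetine. In HT it ran from 3166 to 4047 (median 3579) under vehicle and from 3700 to 4526 (median 3948) under lithium. All 10 libraries of each of these drug groups lay above the median of their vehicle group. The difference was 0.15 in both comparisons (SE 0.0409, adjusted p = 0.0145 under fluoxetine in WT and 0.00836 under lithium in HT). Once the exon length slope described below was fitted, the values under fluoxetine in WT were 0.09 for Chd9 and 0.10 for Chd2, and neither passed (adjusted p = 0.300 and 0.243). Chd9 under lithium in HT was then 0.09 and did not pass either (adjusted p = 0.0865).

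Chd8, a subfamily III enzyme often mutated in autism, had medians of 2861, 3115 and 3075 in WT vehicle, fluoxetine and lithium libraries and 2954, 2858 and 2938 in the HT libraries. Its difference under fluoxetine in WT was 0.11 (SE 0.0389, 95% confidence interval 0.04 to 0.19) and did not pass (adjusted p = 0.0605). Chd1, Chd6 and Chd7 passed in no comparison.

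The NuRD ATPases Chd3 and Chd4 fell in HT under a drug each. Chd4, the main ATPase of NuRD (ENSMUSG00000063870, chr6:125095981-125130591, +), ran from 4856 to 6097 (median 5567) under HT vehicle and from 4595 to 5663 (median 4954) under HT fluoxetine, and 9 of 10 fluoxetine libraries lay below the vehicle median. The difference was -0.17 (SE 0.0402, fold 0.889, adjusted p = 0.00451), and it held in every other setting and without any single library. In WT it was -0.07 and did not pass (adjusted p = 0.31). Chd3 (ENSMUSG00000018474, chr11:69343273-69369406, -) ran from 21925 to 28884 (median 25937) under HT vehicle and from 21468 to 24132 (median 23006) under HT lithium. Its difference was -0.14 (SE 0.0473, adjusted p = 0.0388), lost in 4 of 12 other settings (adjusted p up to 0.142) and in 11 of 20 fits without 1 library (adjusted p 0.0503 to 0.0915), namely HT lithium female 3, 4 and 5 and male 4 and 5, and HT vehicle female 3, 4 and 5 and male 1, 2 and 5. In WT, Chd3 did not pass under lithium, and 5 of 8 lithium libraries lay below the vehicle median. Under fluoxetine in HT, Chd3 had -0.13 (adjusted p = 0.0606), and Chd5 passed in no comparison.

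Within SWI/SNF, Smarcb1, the core subunit lost in rhabdoid tumours, fell under lithium in HT. The gene (ENSMUSG00000000902) lies at chr10:75896769-75921617 (-). Its normalised count ran from 1409 to 1627 (median 1544) under HT vehicle and from 1235 to 1432 (median 1377) under HT lithium, and 9 of 10 lithium libraries lay below every vehicle library. The difference was -0.17 (SE 0.0321, fold 0.886, adjusted p = 0.000235), and it held in every other setting and without any single library. In WT, with 1368 to 1605 under vehicle and 1284 to 1536 under lithium, the difference was -0.07 (adjusted p = 0.33).

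Smarcd3, the subunit tied to neuronal and cardiac BAF, also fell under lithium in HT. The gene (ENSMUSG00000028949) lies at chr5:24590818-24624411 (-), overlapping Chpf2 on the other strand, which had -0.02 there (adjusted p = 0.782). Smarcd3 ran from 1524 to 1894 (median 1689) under vehicle and from 1377 to 1616 (median 1520) under lithium, with 7 of 10 lithium libraries below every vehicle library. The difference was -0.17 (SE 0.043, adjusted p = 0.00556), and -0.13 in WT, which did not pass (adjusted p = 0.096). In HT it was -0.09 with the exon length slope and -0.14 with edgeR on 54 libraries, and it passed in neither (adjusted p up to 0.0635).

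Smarca4 (ENSMUSG00000032187, chr9:21616169-21704230, +) fell under fluoxetine in HT by 0.12 (SE 0.0386, adjusted p = 0.0343). It ran from 4152 to 5593 (median 4761) under vehicle and from 3981 to 4610 (median 4427) under fluoxetine, and all 10 fluoxetine libraries lay below the vehicle median. The call was lost in 3 of 12 other settings (adjusted p up to 0.0953) and in 9 of 20 fits without 1 library (adjusted p 0.0538 to 0.108), namely HT fluoxetine female 1 and 4 and male 1 and 3, and HT vehicle female 3, 4 and 5 and male 1 and 5. In WT, Smarca4 did not pass under fluoxetine, and 8 of 10 fluoxetine libraries lay above the vehicle median. Under vehicle, 5 of 10 HT libraries of Smarca4 lay above every WT library. The alternative ATPase Smarca2 had medians of 7476, 7710 and 7196 in WT vehicle, fluoxetine and lithium libraries and 7133, 7491 and 7055 in HT, and no difference of it from vehicle exceeded 0.07 in size.

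Arid1a, the DNA-binding subunit of most BAF complexes, missed the threshold under fluoxetine in HT (-0.15, adjusted p = 0.0503). Arid1b, its alternative, had medians of 2419, 2459 and 2364 in WT and 2428, 2327 and 2326 in HT for vehicle, fluoxetine and lithium, and its differences from vehicle lay between -0.08 and 0.03. Arid2, Smarcc1, Smarcc2, Smarcd1, Smarcd2 and Smarce1 passed in no comparison. The ISWI members Smarca1, Smarca5 and Bptf and the INO80-like members Ino80, Smarcad1 and Smarcal1 passed in none either.

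Differences between the genotypes passed for 0 of 37 genes with limma. Under vehicle 0.048% of all genes tested passed, under fluoxetine 0.612%, under lithium 0.06% and averaged over treatments 0.468%. At an unadjusted p under 0.05 there were 2 of 37 genes under vehicle, 9 under fluoxetine, 2 under lithium and 0 on average, and edgeR and DESeq2 also called 0. Under fluoxetine 32 of 37 genes were lower in libraries labelled HT, with a median of -0.07. Once the exon length slope was fitted, 24 of 37 were lower, the median was -0.02 and 3 genes had an unadjusted p under 0.05, and with both covariates the median was -0.01. The smallest p without covariates belonged to Zmynd8 (-0.19, 95% confidence interval -0.30 to -0.08, adjusted p = 0.0979) and Chd8 (-0.12, adjusted p = 0.132). Under vehicle they belonged to Chd3 (0.11, adjusted p = 0.323) and Smarca4 (0.08, adjusted p = 0.405), and under lithium to Arid5b (0.19, adjusted p = 0.407) and Smarcb1 (-0.07, adjusted p = 0.442). On average over treatments they were Chd8 (-0.04, adjusted p = 0.536) and Arid3b (-0.09, adjusted p = 0.554).

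Whether a drug acted differently in the genotypes was tested as an interaction. The fluoxetine by genotype interaction passed for 0 of 37 genes (0.042% of all genes), with 9 at an unadjusted p under 0.05 and 30 of 37 below 0. No share of all genes at the unadjusted cut is given beside that 9, so it is not read as an excess. A value below 0 means a less positive or more negative log2 difference in HT than in WT, not a smaller response. Rai1 had the smallest p, with -0.28 (SE 0.0809, 95% confidence interval -0.44 to -0.11, adjusted p = 0.179), followed by Zmynd8 with -0.26 (SE 0.0785, 95% confidence interval -0.41 to -0.10, adjusted p = 0.21). The lithium by genotype interaction passed for 0 of 37 genes (0% of all genes), with 1 at an unadjusted p under 0.05, and Smarcb1 (-0.11, adjusted p = 0.295) and Arid5b (0.21, adjusted p = 0.38) led. edgeR and DESeq2 called 0 members in both. Calls seen in a single genotype above are therefore not shown to differ between genotypes.

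**Figure D4:**
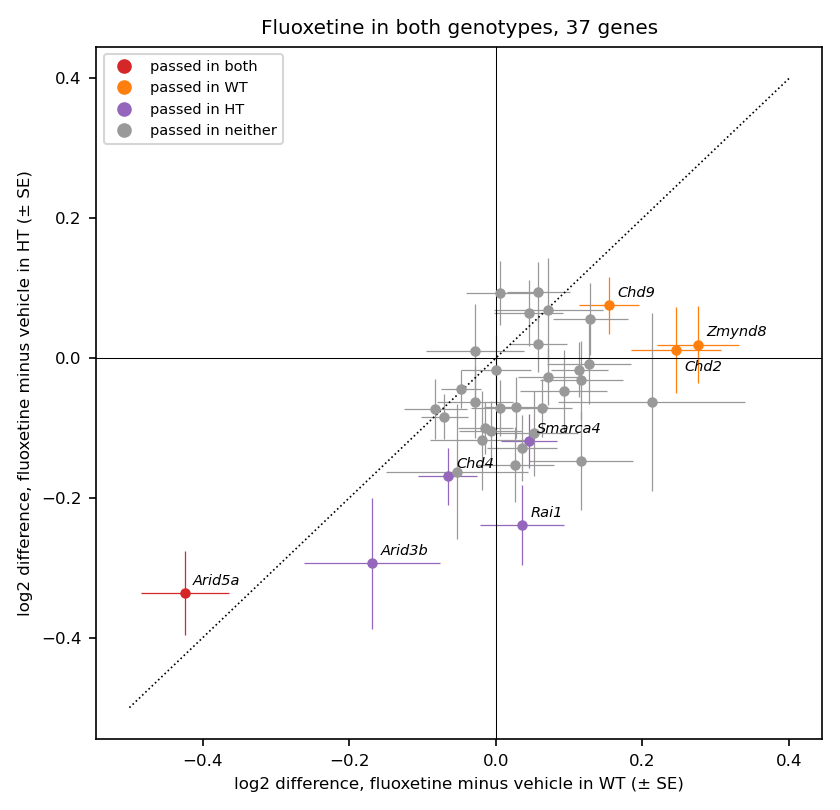
Log2 difference under fluoxetine in WT (x axis) against HT (y axis) with standard errors for 37 genes; red passed in both genotypes, orange in WT, purple in HT, grey in neither, and the dotted line marks equality. Arid5a (-0.42 and -0.34) is the red point at the lower left, and most other points lie below the dotted line.

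Sex was compared as an addition made after the files had been seen. Male minus female, averaged over groups, passed for 0 of 37 genes with limma (0.132% of all genes), with 0 at an unadjusted p under 0.05 and 0 by edgeR and DESeq2. Rai1 (0.06, adjusted p = 0.622) and Smarce1 (-0.04, adjusted p = 0.625) had the smallest p.

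Partner subunits that the symbol rule left out were read from 6 lists, whose median differences stand beside a median of all genes of 0.00 in each comparison. Of 18 further BAF and PBAF subunits, 1 rose and 1 fell under fluoxetine in WT (median 0.04), 1 fell under fluoxetine in HT (median -0.02), 2 rose under lithium in WT (median 0.01), and 1 rose and 1 fell under lithium in HT (median 0.00). Of 11 NuRD partners, 1 fell under fluoxetine in WT (median -0.01), and 2 fell in HT under fluoxetine (median -0.04) and 2 under lithium (median -0.07). Of 18 INO80, SRCAP and TIP60 subunits, 5 fell under fluoxetine and 2 under lithium in HT (medians -0.08 and -0.08), and 0 passed against vehicle in WT. Of 8 other Snf2-type ATPases, 1 rose under fluoxetine in each genotype (medians 0.13 in WT and 0.06 in HT) and 3 rose under lithium in HT (median 0.14). Of 6 SIN3 subunits, 2 fell under fluoxetine in each genotype (medians -0.04 and -0.08). Of 8 ISWI partners, 0 passed against vehicle, with medians from 0.01 to 0.04. These counts stand beside the same background shares as those of the members.

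Sap30, a SIN3 subunit, fell under fluoxetine by 0.37 in HT (adjusted p = 0.00288), and lithium exceeded fluoxetine by 0.36 in WT (adjusted p = 0.0125) and 0.48 in HT (adjusted p = 0.000142). Dpf1, the BAF subunit BAF45b of neurons, fell by 0.16 under fluoxetine in HT (adjusted p = 0.00597) and rose by 0.16 under lithium in WT (adjusted p = 0.0154). It was higher under lithium than under fluoxetine by 0.20 in WT (adjusted p = 0.00222) and 0.23 in HT (adjusted p = 8.92e-05). Mta1, which scaffolds NuRD, fell by 0.16 under fluoxetine in HT (adjusted p = 0.000864) and by 0.13 under lithium in HT (adjusted p = 0.00466). These 3 belong to the complexes of Arid4b (SIN3), Smarcd3 (BAF) and Chd4 (NuRD). Of these pairs, only Mta1 and Chd4 fell in the same comparison, fluoxetine in HT. Arid4b rose and Smarcd3 fell under lithium in HT, which were not the calls of Sap30 and Dpf1. Under fluoxetine in WT, Bcl7c fell by 0.22 and Rbbp7 fell by 0.13, while Bicral rose by 0.13 and Ercc6 by 0.19 (adjusted p from 0.0047 to 0.0354). Under fluoxetine in HT, the AAA ATPase Ruvbl2 of INO80 fell by 0.15, and under lithium in WT the BAF subunit Dpf2 rose by 0.12. Under lithium in HT, the histone chaperone Rbbp7 fell by 0.16, the repair ATPase Ercc6 rose by 0.18 and Actl6b, the actin-like BAF subunit of neurons, fell by 0.11. Between the drugs in WT, Ruvbl2 was 0.17 higher under lithium and Bicral differed by -0.15.

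How levels depended on exon length differed between the groups on average, and most of these genes were long. The median exon length of the members was 8721 bases against 4196 for the tested genes, and 35 of 37 were longer than that median. For each library the slope of the log2 value on log exon length, relative to the average library, was computed. Its mean was -0.0137 in WT vehicle, 0.0215 in WT fluoxetine, 0.00596 in WT lithium, -0.0207 in HT vehicle, -0.00281 in HT fluoxetine and 0.0110 in HT lithium. On average, long genes thus read higher relative to short ones in the drug groups than in their vehicle groups. The SD within a group ran from 0.0163 (WT fluoxetine) to 0.0419 (WT vehicle), and the ranges of drug and vehicle groups overlapped. With this slope as a covariate, 16 of 37 members (43.2%) were lower under fluoxetine in HT in place of 5, where 7.52% of all genes passed as lower in the same fit, among them Bptf (-0.24, adjusted p = 2.76e-05), Chd4 (-0.21, adjusted p = 2.06e-05) and Arid1a (-0.21, adjusted p = 0.000498). Under lithium in HT, 13 passed in place of 6 (10.1% of all genes in the same fit), of which 12 were lower (5.11% of all genes), led by Smarcc2 (-0.18, adjusted p = 0.000237) and Chd4 (-0.17, adjusted p = 0.00054), and Zmynd8 was higher (0.16, adjusted p = 0.0435). Under fluoxetine in WT, 3 passed (1.64% of all genes): Arid5a (-0.45), Chd4 (-0.14) and Zmynd8 (0.19). With both covariates the counts in HT were 16 under fluoxetine and 12 under lithium, all lower, where 13.1% and 5.21% of all genes passed as lower. The slope was itself computed from the same libraries. Where it is higher under a drug, fitting it tends to lower the differences of long genes, and nearly all members are long. The background shares cover genes of all lengths, and no share for genes of like length was computed. With the slope, the member median under fluoxetine in HT moved only from -0.06 to -0.07, while the count rose from 5 to 16. Under lithium in HT the median moved from 0.02 to -0.07. Under fluoxetine in WT it moved from 0.04 to -0.04, and the count went from 4 to 3. What raised the counts in HT was not tested, and they are not read as a fall of these families.

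**Figure D5:**
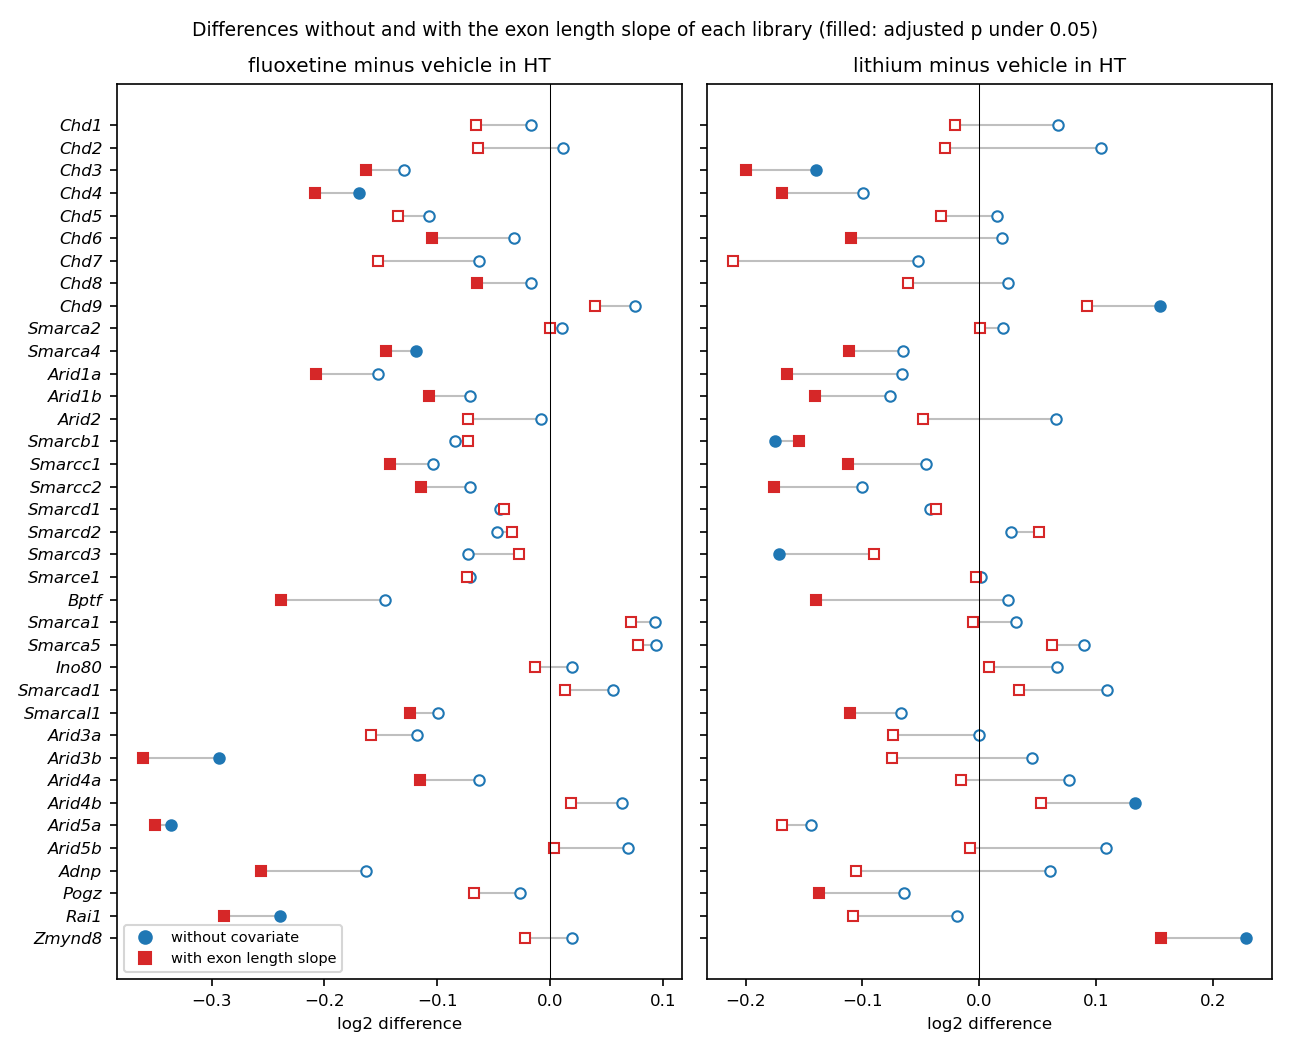
Log2 differences of the 37 genes under fluoxetine (left) and lithium (right) in HT, without a covariate (blue circles) and with the exon length slope of each library (red squares), filled where the adjusted p was under 0.05. Filled points rise from 5 to 16 on the left and from 6 to 13 on the right, and most points shift to lower values with the covariate. Most members are long genes, whose differences this covariate tends to lower.

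The olfactory bulb level, the mean log2 value of the 4 markers, also differed between groups. It averaged 7.38 in WT vehicle, 8.28 in WT fluoxetine and 8.51 in WT lithium, and 8.999 in HT vehicle, 7.44 in HT fluoxetine and 7.72 in HT lithium. With it as a covariate, 4 members passed under fluoxetine in WT (7.12% of all genes in the same fit) and 1 under lithium in WT (4.36%). In HT, 7 of 37 members (18.9%) passed under each drug, where 24.5% of all genes passed under fluoxetine and 19.1% under lithium. Counted in either direction, these counts were not above the background. By direction, all 7 under fluoxetine were lower, where 13.2% of all genes passed as lower, and that excess was not tested. Under lithium 4 were higher (9.58% of all genes) and 3 were lower (9.53%). Under fluoxetine in HT, 2 of 4 oligodendrocyte markers rose (Mobp by 0.59 and Mog by 0.46) and 2 of 5 microglia markers rose (P2ry12 by 0.30 and Cx3cr1 by 0.17). The 4 oligodendrocyte markers summed to between 34486 and 83855 in HT vehicle and between 44907 and 113435 in HT fluoxetine libraries, and none was at 0. The 5 microglia markers summed to between 5097 and 6153 in HT vehicle and between 5040 and 6745 in HT fluoxetine libraries. Of single markers of other types, Gja1 (astrocytes) rose by 0.17, Ly6c1 (endothelium) rose by 0.25, Emx1 (excitatory neurons) fell by 0.25 and Slc32a1 (inhibitory neurons) fell by 0.25. Between lithium and fluoxetine in HT, 2 of 4 oligodendrocyte and 2 of 5 microglia markers were lower under lithium. Under lithium against vehicle in HT, Ly6c1 (0.29) and Pvalb (0.49) rose and Cldn5 (-0.37) fell, with 0 of 4 passing for oligodendrocytes and 0 of 5 each for microglia and astrocytes. In WT, the astrocyte marker Aldh1l1 fell by 0.15 under fluoxetine and 0 markers passed under lithium. Of 6 striatum markers 0 passed in any drug comparison. The part of these cell types in the changes of the members was not tested.

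For the 3 members with the smallest p, the genes of most similar pattern over all 58 libraries were found by Pearson's r across libraries, which share treatment groups and a dissection. The values are a description and carry no test. Arid5a was most like Nab2 (r = 0.85), Stk40 (0.83) and Midn (0.82). Smarcb1 was most like Nop53 (0.81), Irf2bp1 (0.79) and Gnai2 (0.78). Zmynd8 was most like Gramd1b (0.82), Chd9 (0.82) and D630045J12Rik (0.81). Among the members themselves, deviations from the group means gave r above 0 for 511 of 666 pairs with a median of 0.32, highest for the NURF subunit Bptf with Chd6 (r = 0.96). It was above 0.5 for 203 pairs and below -0.5 for 19, lowest for Smarcd3 with Chd8 (r = -0.68). No value for pairs of other genes, or of genes of like length, was computed. These correlations are therefore not read as a trait of the families.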

How the data were processed

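Messenger RNA of 58 prefrontal cortices had been made into stranded libraries, per the labels' protocols. The submitters' processing notes name Salmon 0.11.2, R 3.6.0, DESeq2 1.19.11 and GRCm38. The annotation release, the counting settings and the use of strand were not given in the sources used here. The authors deposited 1 table of normalised signal for 18088 Ensembl genes, that is, gene counts divided by a size factor. In all 58 libraries, dividing by the value of 1 read returned whole numbers (100% of values, tolerance 0.01). The value of 1 read was 0.75 to 1.27, which gave 23.5 to 38.6 M reads per library. Recovered reads of 54 libraries entered count tests. The other 4 libraries (HT lithium male 3, HT vehicle female 2, male 1 and male 5) were left out of count tests. Their value of 1 read lay near 1, and the check of the unit could not be settled. HT lithium male 2, at 1.013, was kept.

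Symbols, positions and exon lengths came from GENCODE vM21 (GRCm38), which named 18077 IDs and left 11 without a symbol. Values were taken as log2(value + 1). Genes with a mean of at least 10 (16669) were tested with limma 3.58.1 (R 4.3.3) with a variance trend, 1 coefficient for each of 12 groups of genotype, treatment and sex, contrasts averaging the sexes, and Benjamini-Hochberg adjustment over all genes tested. The alternatives were another filter (none, or a mean of 100), another pseudocount (0.5 or 10), quantile normalisation, a replicate block, fitting the compared groups alone, a covariate for olfactory bulb level or for exon length slope, leaving out each library, and edgeR 4.0.16 and DESeq2 1.42.0 on recovered reads. Both covariates together, the comparison of the sexes and the medians over members were added after the data had been seen. Scripts were tested on simulated data.

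Members and gene lists were chosen with earlier results of these data known. In each comparison up to 8 passing members with the smallest p were named, or the 2 with the smallest p where fewer than 2 passed. Adnp, Pogz, Chd8, Arid1b, Chd2 and Smarca2 were given by group whatever their p, and up to 4 passing partners were named. The replicate numbers of the labels did not pair samples. Some marker genes are not reported here and were left out of the marker sums and counts.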

Additional observations from a re-analysis of the deposited data

Results flagged for a closer look

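Among 72 sets of libraries (12 genes in 6 groups of genotype and treatment, with 8 or 10 libraries each), 6 had a library set far from the rest by Dixon's test of the gap against the range, and chance marks about 1 in 20. Zmynd8 read 5154 in HT vehicle female 3, where the other 9 libraries of the group lay between 3631 and 4245. Arid3b read 267.7 in HT vehicle female 5 against 154.4 to 211.8 in the others. Chd3 read 27925 in WT fluoxetine male 1 against 22832 to 24385. Chd4 read 5663 in HT fluoxetine male 4 against 4595 to 5132. Chd9 read 3046 in WT lithium female 3 against 3681 to 4188, and Smarcb1 read 1235 in HT lithium female 5 against 1336 to 1432. The calls of Chd4 under fluoxetine, and of Smarcb1 and Zmynd8 under lithium, in HT held without any single library of their comparison. That of Arid3b under fluoxetine in HT was lost without HT vehicle female 5, among 6 libraries.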

How the results depend on the processing

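No member that passed changed direction in any setting or without any library. Over the other settings, 222 of the values for members that passed stayed on their side of the threshold and 30 did not, and of those with 1 library left out 356 stayed and 60 did not. Arid5a under fluoxetine in both genotypes and between drugs in WT, Zmynd8 under fluoxetine in WT and between drugs in HT, Rai1 under fluoxetine and between drugs in HT, Chd4 under fluoxetine in HT and Smarcb1 under lithium in HT passed throughout.

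The number of members past the threshold under fluoxetine in HT was 5, and became 16 with the exon length slope, 16 with both covariates, 3 in the compared groups alone and 3 with edgeR. Under lithium in HT it was 6, and became 13 with the slope, 12 with both covariates and 3 with edgeR. Under lithium in WT it was 1, and became 0 with the slope, 2 with both covariates and 0 in the compared groups alone. Between the drugs in WT it was 1, and became 2 with the slope and 2 with both covariates. Leaving out 1 library gave 3 to 9 under fluoxetine in HT (3 without HT fluoxetine female 1, HT vehicle female 3, female 5 or male 1, 9 without HT vehicle female 1 or female 2, and 8 without HT vehicle male 3). It gave 4 to 5 under fluoxetine in WT, 4 to 8 under lithium in HT, 0 to 1 under lithium in WT (0 without each of the 9 libraries named for Zmynd8) and 2 to 4 between the drugs in HT (2 without HT fluoxetine female 1). DESeq2, on the same 54 libraries as edgeR, called 6 under fluoxetine and 4 under lithium in HT. Those 54 lack HT vehicle female 2, male 1 and male 5 and HT lithium male 3. The cause was not tested. Counts of 0 for genotype, interaction and sex stayed at 0 in every setting run. The fit on the compared groups alone was not run for the averaged genotype comparison or sex.

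With the replicate number as a block, members past the threshold were 4 and 5 under fluoxetine in WT and HT, 1 and 5 under lithium, and 1 and 3 between the drugs. Same-numbered libraries had a median correlation of -0.01, and 11 of 58 libraries correlated best with their own number. Over all genes, edgeR and DESeq2 called 817 and 1003 under fluoxetine in HT against 2134 with limma, and 1074 and 1257 against 2345 under lithium in HT. Their fits lacked HT vehicle female 2, male 1 and male 5 and HT lithium male 3. The method and the missing libraries cannot be told apart in these counts. Under fluoxetine in WT, where no library was missing, edgeR and DESeq2 called 1114 and 1306 against 1232. Other counts moved over 1.5 times were 4088 with the bulb level and 3809 with both covariates under fluoxetine in HT, 273 with the slope and 362 with both covariates under fluoxetine in WT (1232 with limma alone), and 1105 with both covariates and 229 in the compared groups alone under lithium in WT (556). Between the drugs they were 1324 with the bulb level, 1071 with both covariates and 228 in the compared groups alone in WT (702), and 1857 with the bulb level and 2217 with both covariates in HT (1132). Genotype counts over all genes ranged from 7 to 225 under fluoxetine (102), 1 to 29 under vehicle (8), 2 to 52 under lithium (10) and 42 to 357 on average (78). They ranged from 0 to 17 for the fluoxetine by genotype interaction (7), from 0 to 1 for the lithium interaction (0) and from 17 to 60 for sex (22).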
